A study of Mus musculus with 3 samples.

Results

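The *Sox* genes encode transcription factors with an SRY-type HMG box, and 9 of them (*Sox2*, *Sox4*, *Sox7*, *Sox9*, *Sox11*, *Sox12*, *Sox13*, *Sox15* and *Sox21*) are described here. They were taken by gene name from the 18890 genes with an assigned accessible region, and all 9 were found. Chromatin accessibility had been profiled by ATAC-seq, in which a transposase cuts and tags open DNA, in organoids grown from primary basal cells of wildtype mouse prostate. The organoids received vehicle, 10 µM UK5099, an inhibitor of the mitochondrial pyruvate carrier, or 20 mM sodium lactate, and were collected on day 7. Each condition has 1 library, so differences could not be tested against replicates and no p-values are given; the values describe single libraries.

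The HMG box binds the minor groove of DNA at short motifs related to ACAAAG and ACAATG and bends the helix, and Sox proteins usually act together with partner factors such as POU proteins. Members are sorted into groups by the similarity of their HMG boxes: *Sox2* belongs to B1, *Sox21* to B2, *Sox4*, *Sox11* and *Sox12* to C, *Sox13* to D, *Sox9* to E, *Sox7* to F and *Sox15* to G. *Sox9* is required for prostate bud growth, *Sox2* marks stem and progenitor states in many epithelia and is found in basal cells of the prostate, and *Sox4* is an oncogene in prostate cancer.

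The measure is the peak height of a gene, which is the coverage at the highest bin of each merged region, averaged over the regions assigned to that gene. It carries the authors' scaling, and dividing by the height of 1 read gave the number of stacked reads behind each value. The 95% intervals in parentheses are Clopper-Pearson intervals that treat those reads as independent counts. They cover counting error only and are too narrow as a measure of the difference between cultures. Stacked reads are the coverage of a bin rather than fragments, so the intervals may be too narrow for counting error too. The median gene stood at 51.3 in vehicle, 58.7 in UK5099 and 60.3 in lactate, so that the median ratio was 1.15-fold for UK5099 against vehicle and 1.18-fold for lactate against vehicle, or 0.21 and 0.23 on the log2 scale. Judged from the height of 1 read, depth relative to UK5099 was 1.74 in vehicle and 2.12 in lactate, if the authors' scaling equalised it. In a bulk culture a smaller share of cells of one kind cannot be told apart from lower accessibility in every cell. The 5 basal markers all had called peaks in the 3 libraries, with summed heights of 255, 325 and 342 in vehicle, UK5099 and lactate, from *Krt15* at 1.08-fold to *Krt14* at 1.49-fold for UK5099 and from *Trp63* at 1.24-fold to *Krt15* at 1.51-fold for lactate. The 5 luminal markers, of which 4 had a called peak in UK5099 and 5 in the others, summed to 299.7, 220.2 and 346.2. *Krt18*, the lowest of them in both comparisons (0.376-fold and 0.986-fold), read 70.1, 26.3 and 69.1, and *Krt19* was highest at 0.992-fold and 1.36-fold.

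The stretches of DNA shown next are the promoters of *Sox2* (the one promoter with a Sox-type match), *Sox21* (the gene with the tallest region of any member, in UK5099) and *Sox11* (the gene furthest below vehicle in lactate), and 2 *Sox15* peaks, one called in the treated libraries alone and one higher there. Matches to 3 motifs are in capitals: ACAAAG and ACAATG, which are Sox-type, and TGACTCA, which is AP-1-type, each searched on both strands. The first 3 are the 250 bases before the RefSeq start of *Sox2* (chr3:34649745-34649994, plus strand), *Sox21* (chr14:118237031-118237280, minus strand) and *Sox11* (chr12:27342719-27342968, minus strand), read 5′ to 3′ along the gene from the RefSeq promoter table on GRCm38.p6. The others are 201 bases centred on called peaks listed for *Sox15*, one within its coding sequence (chr11:69655452-69655652, plus strand) and one just before *Cd68* (chr11:69666236-69666436, plus strand), read from the GRCm38.p6 genome.
Sox2 promoter: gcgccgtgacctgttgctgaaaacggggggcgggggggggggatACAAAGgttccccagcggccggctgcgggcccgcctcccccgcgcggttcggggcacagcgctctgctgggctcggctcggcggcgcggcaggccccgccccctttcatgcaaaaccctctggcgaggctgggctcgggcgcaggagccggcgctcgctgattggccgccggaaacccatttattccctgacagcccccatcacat
Sox21 promoter: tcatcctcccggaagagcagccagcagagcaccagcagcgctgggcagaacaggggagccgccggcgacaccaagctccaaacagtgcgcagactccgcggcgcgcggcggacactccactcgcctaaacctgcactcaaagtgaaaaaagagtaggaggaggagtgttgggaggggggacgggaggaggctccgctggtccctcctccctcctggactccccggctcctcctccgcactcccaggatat
Sox11 promoter: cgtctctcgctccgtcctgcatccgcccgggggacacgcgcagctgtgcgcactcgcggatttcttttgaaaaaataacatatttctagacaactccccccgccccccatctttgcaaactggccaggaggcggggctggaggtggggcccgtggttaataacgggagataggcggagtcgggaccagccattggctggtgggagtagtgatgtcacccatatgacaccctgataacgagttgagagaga
Sox15 coding peak: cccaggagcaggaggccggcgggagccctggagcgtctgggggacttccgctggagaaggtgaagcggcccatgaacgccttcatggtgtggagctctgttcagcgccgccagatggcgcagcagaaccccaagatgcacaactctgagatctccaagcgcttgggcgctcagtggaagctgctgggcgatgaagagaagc
Sox15 distal peak: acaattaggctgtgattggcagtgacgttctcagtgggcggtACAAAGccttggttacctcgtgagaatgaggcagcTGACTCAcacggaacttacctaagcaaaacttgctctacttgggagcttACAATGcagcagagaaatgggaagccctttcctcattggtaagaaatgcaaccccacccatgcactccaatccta

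The distal *Sox15* peak held 1 match to each of the 3 motifs, while the coding peak held none. Among windows of the same length around 71338 called peaks, 13.7% held ACAAAG, 8.97% ACAATG and 21.5% TGACTCA. Of the 7 members with a promoter in the table, 1 (*Sox2*) held ACAAAG, and 0 held ACAATG or TGACTCA. Over all 32851 promoters these shares were 16.5%, 10.7% and 4.46%. For base composition, 6 of 7 lay above the median promoter (52.4% GC), from 50.8% in *Sox4* to 74.4% in *Sox12*, and the same number held more CpG pairs than the median of 6. *Sox15* had the fewest, with 5, and *Sox12* the most, with 35. A motif match is a description of the sequence, and factor binding was not measured.

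Across the 9 genes, *Sox9* and *Sox15* had the highest mean height over their regions and *Sox11* and *Sox13* the lowest in each condition. Such an order depends on the regions assigned to each gene. The tallest region in any library was 172 for *Sox21* and 111 for *Sox9*. In vehicle the order was *Sox9*, *Sox15*, *Sox4*, *Sox12*, *Sox21*, *Sox2*, *Sox7*, *Sox11* and *Sox13*, and 6 of the 8 neighbouring pairs did not differ beyond their counting intervals. In UK5099 *Sox15* (100) stood before *Sox9* (87.0), by 1.15-fold with an interval that reaches below 1 (0.960 to 1.38), and none of the 8 neighbouring pairs differed beyond counting error. In lactate *Sox9* (108.1) stood before *Sox15* (90.5) by 1.2-fold (1.06 to 1.34), and *Sox11* stood last, 2.48-fold (1.87 to 3.33) under *Sox13*. By mean height over the libraries, 7 members lay at or above the lower quartile of all genes (36.2) and 5 at or above the median (56.7).

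**Figure D1:**
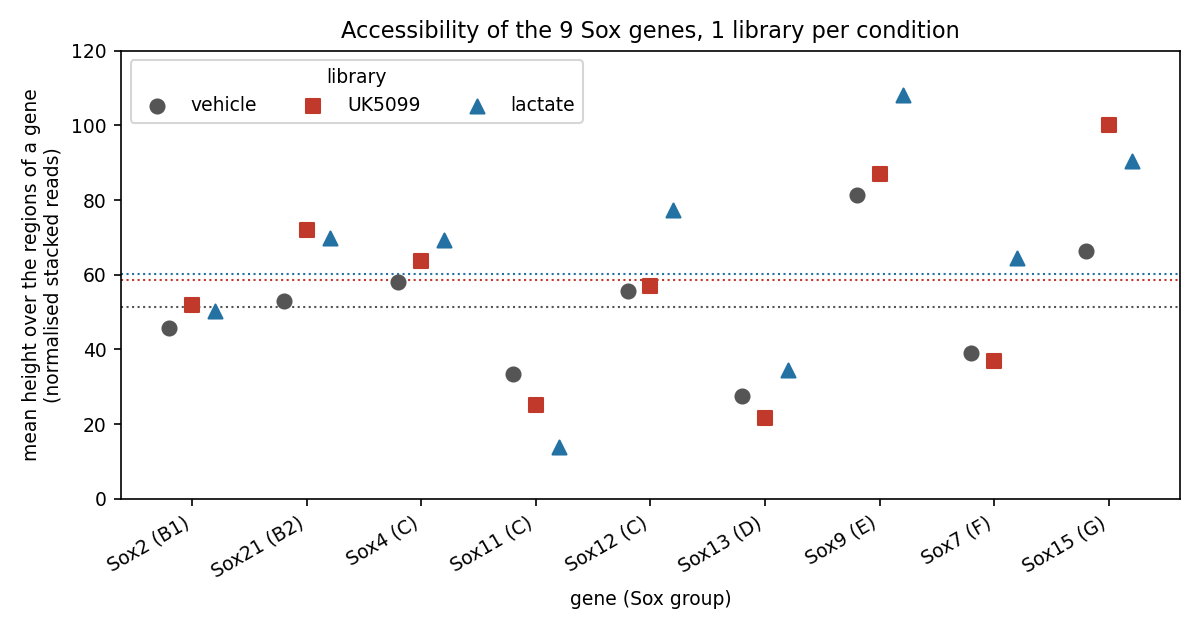
Peak height (normalised stacked reads, averaged over the regions of a gene) of the 9 Sox genes in the vehicle, UK5099 and lactate libraries, 1 point per library, with the median gene of each library as a dotted line in its colour. Sox15 reads 66.4 in vehicle and 100 in UK5099, and Sox11 reads 33.3 in vehicle and 13.9 in lactate.

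The comparison of UK5099 with vehicle asks how blocking pyruvate entry into mitochondria affects accessibility at these genes. *Sox15* was the member furthest above vehicle in UK5099-treated organoids, followed by *Sox21*, whereas *Sox11* and *Sox13* were lower than in vehicle, and each lay on the same side of the median gene as of vehicle. At 1.5-fold or more lay 1 of 9 members (*Sox15*), where 9.05% of all genes did, and at 0.5-fold or less 0 of 9, where 1.36% did. The regions of *Sox15* were all listed for neighbouring genes too, and its ratio was 1.31-fold with libraries scaled by the median of ratios. Above 1-fold lay 6 of 9 members against 75.7% of all genes. Above the median gene lay 2 of 9, where 9444 of 18889 genes did. The members' median was 1.07-fold, which is 0.927 times the median gene, so that it lay above vehicle as deposited and below it once the libraries were scaled by the median of ratios (0.928-fold). Counting intervals of 6 members held the median gene, that of *Sox15* lay above it, and those of *Sox11* and *Sox13* lay below it. The share of all genes whose intervals leave out the median gene was not computed. These counts therefore cannot be read as a trait of the members.

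The comparison of lactate with vehicle asks the same of lactate, the product that pyruvate yields in the cytoplasm. Lactate-supplemented organoids had higher peaks than vehicle at every member except *Sox11*, although *Sox2* lay below the median gene (0.933 times it) and would fall below vehicle if the libraries were scaled by that gene. *Sox7* stood furthest above vehicle and *Sox11* furthest below. At 1.5-fold or more lay 1 of 9 members (*Sox7*) against 6.07% of all genes, and at 0.5-fold or less 1 of 9 (*Sox11*) against 0.513%. Above 1-fold lay 8 of 9, and 83.1% of all genes did. The median of 1.31-fold was 1.12 times the median gene, and 7 of 9 members lay above the median gene, where 9445 of 18890 genes did. The intervals of *Sox7*, *Sox12* and *Sox15* lay above the median gene and that of *Sox11* below it, while the other 5 held it. Here too the share over all genes was not computed, so these counts are no trait of the members. Both comparisons use the same vehicle library, so their values are given side by side and were not set against each other.

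UK5099 and lactate can be compared directly. *Sox11* was higher in UK5099 than in lactate, and *Sox7*, *Sox9*, *Sox12* and *Sox13* were lower. At 1.5-fold or more lay 1 of 9 members (*Sox11*) against 3.71% of all genes, at 0.5-fold or less 0 of 9 against 1.43%, and above 1-fold 4 of 9 against 45.9%. The median ratio was 0.919-fold, beside a median gene of 0.983-fold.

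**Figure D2:**
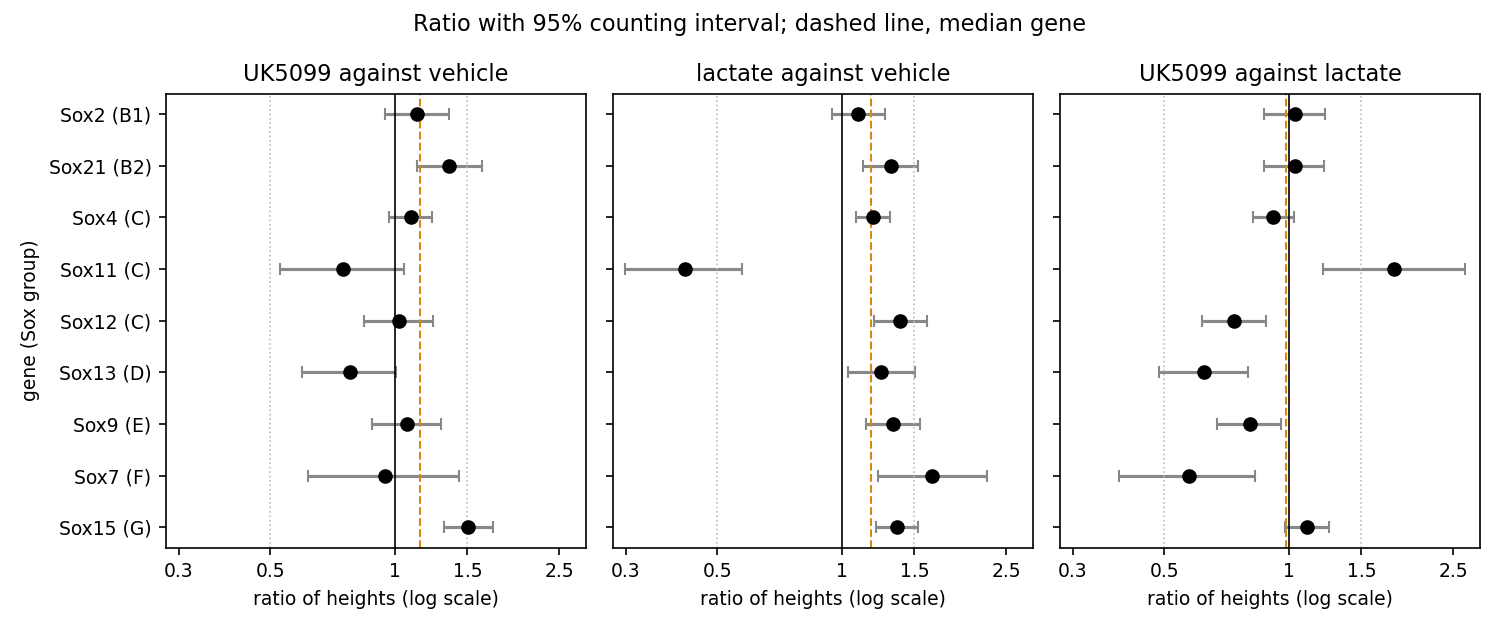
Ratio of peak heights (log axis) of each Sox gene for UK5099 against vehicle, lactate against vehicle and UK5099 against lactate, with 95% counting intervals as bars, 1 as a solid line, the median gene as a dashed line, and 0.5 and 1.5 as dotted lines. Sox15 is the member at 1.51-fold in the first panel, and Sox7 (1.65-fold) and Sox11 (0.417-fold) lie past the dotted lines in the second.

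Peaks had been called in each library, and 30 merged regions were assigned to the 9 genes. Of these, 15 had a called peak in all 3 libraries, 8 in 2 and 7 in 1 (1 in vehicle alone, 3 in UK5099 alone and 3 in lactate alone). Among 52095 regions of the 17387 genes whose regions could be rebuilt in the same way, counted once for each gene, 63.4% were called in all 3, 15.4% in 2 and 21.2% in 1, a comparison added after the data had been seen. Over all genes 4.11% were called in vehicle alone, 6.09% in UK5099 alone and 10.96% in lactate alone. For the members these shares were 3.33%, 10% and 10%. All 9 members had a region within 1 kb of the start, and the share of all genes with such a region was not computed. By regions, 11 of 30 lay that near for the members and 12591 of 52095 over all genes. Of the 11 near regions 7 were called in all 3 libraries, beside 8 of the 19 farther away, where the shares over all genes were 85.3% and 56.4%. These differences from all genes were not tested. The members held 22 called peaks in vehicle, 23 in UK5099 and 26 in lactate, from libraries that listed 45956, 45744 and 54446 peaks over all genes. Every member had a called peak in vehicle and in UK5099, where 94.7% and 94.2% of all genes did. In lactate 8 of 9 members did, against 96.3% of all genes, and the exception was *Sox11*. A call depends on depth as well as height, and lactate was the deepest library.

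**Figure D3:**
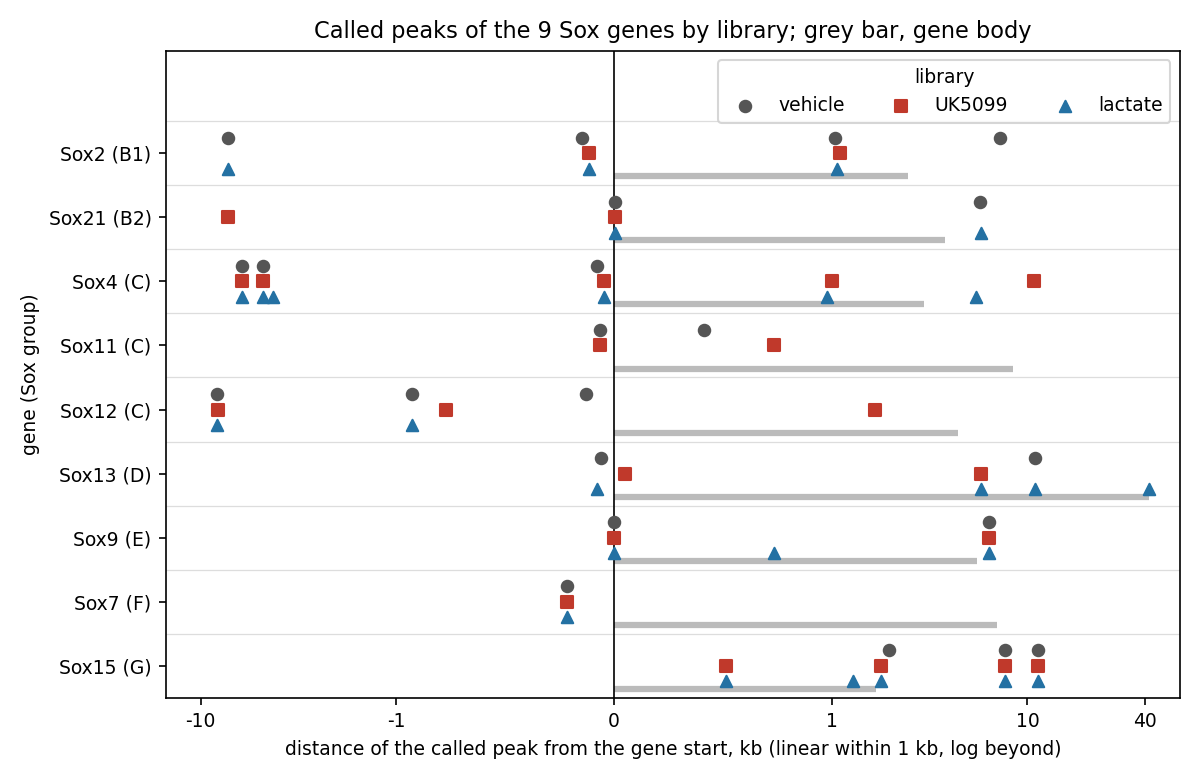
Distance of each called peak from the gene start in kb (linear within 1 kb, log beyond) for the 9 Sox genes, with 1 row of symbols per library and the gene body as a grey bar. Sox11 has 2 peaks in vehicle, 2 in UK5099 and 0 in lactate, and the peak of Sox15 within 1 kb of its start appears in UK5099 and lactate.

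*Sox2* (group B1, chr3:34650005-34652461) encodes a pluripotency factor that also maintains basal cells of several stratified epithelia. Its peaks averaged 45.8 in vehicle, 52.0 in UK5099-treated and 50.3 in lactate-supplemented organoids, from 319, 208 and 427 stacked reads. These values lie close together. The ratio was 1.13-fold (0.948 to 1.36) for UK5099 and 1.10-fold (0.947 to 1.27) for lactate, and both intervals held 1. The gene had 4 regions, and its called peaks numbered 4 with vehicle, 2 with UK5099 and 3 with lactate. Called in all 3 were a promoter peak, 149 bp before the start in vehicle and 117 bp before it in the others, and a peak within the coding sequence. The promoter peak lies inside the sequence printed above. A peak 7253 bp before the start was called in vehicle and lactate, and a peak 7243 bp after it in vehicle. The first of these has a height of its own, because its values could be solved from neighbouring genes that share it: 16.7 in vehicle, 12 in UK5099 and 22.6 in lactate, from only 29, 12 and 48 reads. The other 3 regions averaged 55.6, 65.3 and 59.5, which is 1.18-fold (0.976 to 1.42) for UK5099. All 4 regions were also listed for *Sox2ot*, the long non-coding RNA gene in whose intron *Sox2* lies.

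*Sox21* (B2, chr14:118233233-118237030) encodes a relative of Sox2 that can repress where the B1 proteins activate. The gene read 53.1 in vehicle, 72.0 with UK5099 and 69.7 with lactate, from 277, 216 and 444 reads. Both treated libraries stood above vehicle and near each other. The ratio was 1.36-fold (1.13 to 1.63) for UK5099 and 1.31-fold (1.13 to 1.53) for lactate, with intervals that did not hold 1 but held the median gene. A peak 6 bp after the start was called in all 3 libraries. The tallest region of *Sox21* reached 172 in UK5099, the highest single region of any member, while its other 2 regions together reached 44.0. All 3 regions together came to 159 in vehicle, and how high the tallest one was there could not be solved. A peak 7290 bp before the start was called in UK5099 alone, and one after its end, 5734 bp from the start, in vehicle and, 5798 bp from it, in lactate.

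*Sox4* (C, chr13:28950716-28953682), a factor of progenitor cells and of Wnt signalling, had the most regions, 7. Mean heights were 58.1 in vehicle, 63.6 with UK5099 and 69.2 with lactate, from 708, 445 and 1028 reads. The ratio was 1.09-fold (0.969 to 1.23) for UK5099 and 1.19-fold (1.08 to 1.31) for lactate, the latter with the median gene inside its interval. Called peaks numbered 3 with vehicle, 5 with UK5099 and 6 with lactate. The 3 regions called in all libraries were the promoter and a pair 4814 and 6126 bp before the start. A peak within the *Sox4* coding sequence, 1010 bp after the start in UK5099 and 978 bp in lactate, was not called in vehicle. Peaks 4270 bp before and 5458 bp after the start were called in lactate alone, and one 10866 bp after it in UK5099 alone. No region of *Sox4* was listed for another gene.

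*Sox11* (C, chr12:27334268-27342718) encodes a factor of the embryonic nervous system and of mesenchyme, and it was the member with the largest difference. Peaks averaged 33.3 in vehicle, 25.0 with UK5099 and 13.9 with lactate, from 116, 50 and 59 reads. Vehicle was highest and lactate lowest in these heights, which are scaled per library. The ratio was 0.417-fold (0.3 to 0.575) for lactate, at percentile 0.217 of all genes, and 0.750-fold (0.527 to 1.05) for UK5099. UK5099 stood 1.80-fold (1.21 to 2.67) above lactate. The gene had 2 regions, neither shared with another gene: the promoter, with a peak 66 bp before the start that lies inside the sequence printed above, and the start of the coding sequence, with a peak 414 bp after the start in vehicle and 734 bp after it in UK5099. Both were called in vehicle and UK5099, and neither in lactate. The taller region reached 47.7 in vehicle and the other 19. Since the 2 regions together came to 27.8 in lactate, the taller one was at most 0.583-fold of vehicle there. By height the gene lay at percentile 25.2 of all genes in vehicle and 2.99 in lactate. The 5 of 6 neuroendocrine and neural markers measured summed to 193, 191 and 206 in vehicle, UK5099 and lactate. Of them 3, 4 and 5 had a called peak there, and their part in the *Sox11* values was not tested.

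*Sox12* (C, chr2:152393611-152398046), the third group C gene, is broadly expressed. The mean over its 3 regions was 55.7 in vehicle, 57.0 with UK5099 and 77.3 with lactate, from 291, 171 and 492 reads. Lactate stood apart from the others, at 1.39-fold (1.2 to 1.61) of vehicle, whereas UK5099 was at 1.02-fold (0.842 to 1.24). UK5099 against lactate was 0.738-fold (0.616 to 0.880). Its promoter region was called in all libraries, with peaks 130 and 930 bp before the start in vehicle, 770 bp in UK5099 and 930 bp in lactate. A peak 1662 bp after the start, in the untranslated part of the transcript, was called in UK5099 alone. The region farthest before the start, with a peak at 8226 bp in vehicle, was shared with *Zcchc3*. The 3 group C genes thus differed in lactate: *Sox12* and *Sox4* stood above vehicle and *Sox11* below it. Relative to the median gene *Sox12* was at 1.18, *Sox11* at 0.355 and *Sox4* at 1.01, with an interval that held that gene.

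*Sox13* (D, chr1:133382300-133424212), a factor without an activation domain of its own that is known from lymphocyte development, had the lowest heights in vehicle and UK5099. They were 27.6 in vehicle, 21.5 in UK5099 and 34.4 in lactate, from 192, 86 and 292 reads. UK5099 stood lowest and lactate highest, and UK5099 against lactate was 0.625-fold (0.486 to 0.798). Against vehicle the ratio was 0.779-fold (0.597 to 1.01) for UK5099 and 1.25-fold (1.04 to 1.5) for lactate. The promoter was called in all libraries, while 2 intronic regions were called in 2 libraries each, one 5812 bp after the start in UK5099 and 5780 bp in lactate, the other 10964 bp in vehicle and 10932 bp in lactate. A further region, beyond the far end of the gene and shared with *Etnk2*, was called in lactate alone. Its own height was 14.9, 11 and 25.0 in vehicle, UK5099 and lactate. Without it, the other 3 regions averaged 31.8, 25.0 and 37.5, and UK5099 against lactate was 0.666-fold (0.507 to 0.867).

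*Sox9* (E, chr11:112782210-112787757), the prostate bud and progenitor factor, had the highest mean height of the 9 genes in vehicle and lactate. Its 2 regions averaged 81.3 in vehicle, 87.0 with UK5099 and 108.1 with lactate, from 283, 174 and 459 reads. Lactate stood above both others, at 1.33-fold (1.14 to 1.55) of vehicle, with an interval that held the median gene at its lower end. UK5099 was at 1.07-fold (0.881 to 1.30) of vehicle and 0.805-fold (0.672 to 0.960) of lactate. Its 2 regions, at the start and 6366 bp after it, were called in all libraries at the same positions, and in lactate a further peak was called within the coding sequence, 734 bp after the start. Both were also listed for the predicted gene *Gm11681*. In lactate the taller region reached 111 and the other 105, so the 2 were nearly equal.

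*Sox7* (F, chr14:63943706-63950732) encodes a factor of endothelium and early endoderm. It had 1 region, 218 bp before the start and called in all 3 libraries, so its height is that of its promoter: 39.1 in vehicle, 37.0 in UK5099 and 64.5 in lactate. These values rest on 68, 37 and 137 reads, the fewest of any member in vehicle and UK5099. Lactate stood apart, at 1.65-fold (1.23 to 2.24) of vehicle and percentile 97.3 of all genes (1.41 times the median gene, which is under 1.5 once the libraries are scaled), while UK5099 was at 0.947-fold (0.617 to 1.43). UK5099 against lactate was 0.573-fold (0.387 to 0.830). The 5 of 7 endothelial markers measured, *Sox18* among them, summed to 199, 190 and 202 in vehicle, UK5099 and lactate, where 4, 3 and 5 of them had a called peak. *Pecam1* was highest at 1.32-fold and *Kdr* lowest at 0.470-fold for lactate, and their part in the *Sox7* values was not tested. *Sox18*, the other group F gene in the table, was at 1.29-fold (0.994 to 1.67) for UK5099 and 1.23-fold (0.993 to 1.53) for lactate, and both intervals held 1.

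*Sox15* (G, chr11:69655037-69656727) encodes the mouse group G protein, known from muscle regeneration and placenta. Its heights were 66.4 in vehicle, 100 with UK5099 and 90.5 with lactate, from 462, 400 and 768 reads. Both treated libraries stood above vehicle, at 1.51-fold (1.31 to 1.73) for UK5099 and 1.36-fold (1.21 to 1.53) for lactate, and UK5099 against lactate was 1.11-fold (0.977 to 1.25). The UK5099 value was 1.31 times the median gene, so it lay under 1.5 once the libraries were scaled, and also with a pseudocount of 1. The 4 regions lie in a dense cluster of genes, and each was listed for at least 4 others, among them *Mpdu1*, *Fxr2*, *Eif4a1* and *Cd68*. Only the first lies at the start of *Sox15*: a peak 515 bp after the start, in the coding sequence printed above, was called in UK5099 and lactate and not in vehicle. The next spans the end of the gene and the untranslated end of *Mpdu1*, the one after it lies just before the start of *Mpdu1*, and the last, the distal peak printed above, lies 183 bp before *Cd68*, a macrophage gene. The distal peak has a height of its own, 93.1 in vehicle, 144 in UK5099 and 130.5 in lactate. It was higher in both treated libraries, at 1.55-fold (1.23 to 1.95) for UK5099 and 1.40-fold (1.15 to 1.71) for lactate. The other 3 regions averaged 57.5, 85.3 and 77.1, at 1.48-fold (1.25 to 1.76) and 1.34-fold (1.16 to 1.55). For lactate, the intervals of the distal peak and of the other 3 regions held the median gene (1.18-fold). For UK5099 they lay above it (1.15-fold). All 4 regions were also listed for *Cd68*, and the region at the start of *Sox15* has no height of its own, so accessibility of *Sox15* cannot be told apart from that of its neighbours. The 3 of 4 immune markers measured summed to 143, 200 and 189, and all 3 had a called peak in each library. However, *Cd68* (88.1, 128 and 119) shares 4 of its 5 regions with *Sox15* and is no separate measurement. *Ptprc* was highest for UK5099 at 1.59-fold and *Itgam* lowest at 1.14-fold. Without *Sox15* the members' medians were 1.05-fold for UK5099 and 1.28-fold for lactate, a setting added after the data had been seen.

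**Figure D4:**
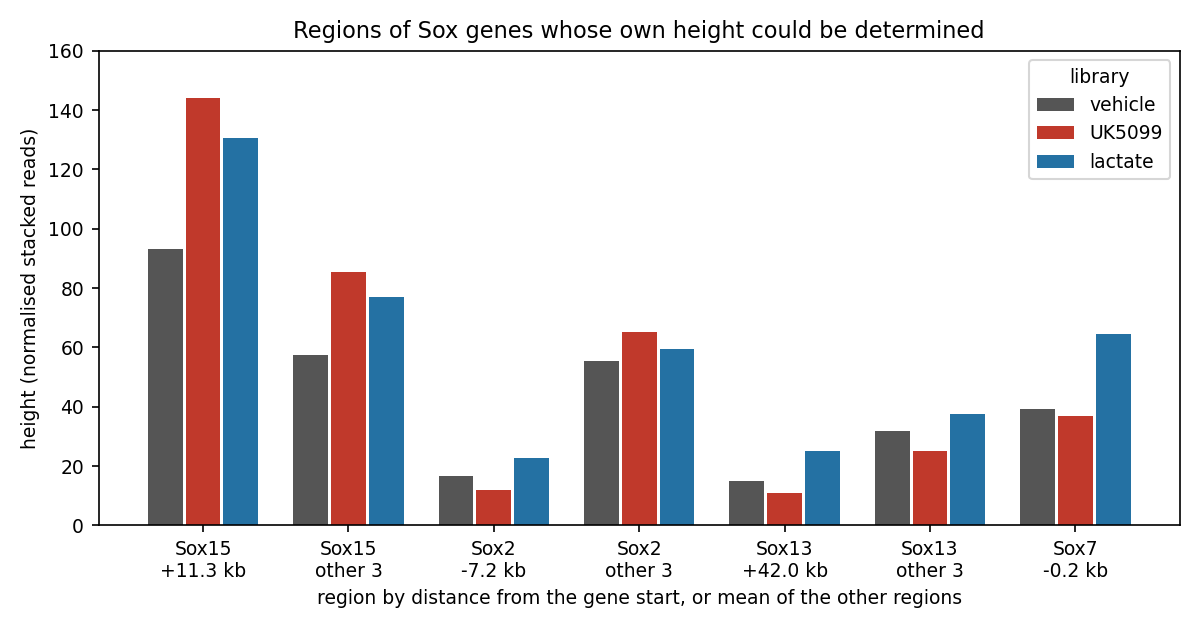
Height (normalised stacked reads, bars from 0) of the 4 regions of Sox genes that could be solved on their own, with the mean of the remaining 3 regions beside them for Sox15, Sox2 and Sox13 (Sox7 has 1 region), for vehicle, UK5099 and lactate. The distal Sox15 region reads 93.1, 144 and 130.5, and the Sox7 promoter reads 39.1, 37.0 and 64.5.

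Of 11 further Sox genes, including *Sry*, 7 had a region in the table and *Sox1*, *Sox14*, *Sox17* and *Sry* were not analysed here. Their median was 0.903-fold for UK5099 and 1.22-fold for lactate, and none reached 1.5-fold in either. *Sox6*, a group D gene with 18 regions, was highest in both, at 1.42-fold (1.27 to 1.58) for UK5099 and 1.35-fold (1.23 to 1.48) for lactate. The lowest were *Sox30* at 0.573-fold for UK5099 and *Sox3* at 0.475-fold (0.204 to 1.05) for lactate, the latter on 19 and 11 reads. *Sox30* was at 0.768-fold for lactate and *Sox3* at 0.641-fold for UK5099. *Sox5*, the third group D gene, was at 1.19-fold and 1.32-fold, and *Sox8*, of group E, at 0.888-fold and 1.22-fold. *Sox3* is the other B1 gene measured, and it had a called peak in vehicle only. *Sox10*, the neural crest factor of group E, was at 0.903-fold and 0.962-fold, below the median gene in both. The Schwann markers, *Sox10* among the 3 of 4 measured, had medians of 1.03-fold and 1.0-fold, and the 4 stromal markers 1.12-fold and 0.937-fold.

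Other HMG-box genes of the Tcf/Lef, Tox and related families had a median of 1.05-fold for UK5099 and 1.14-fold for lactate over 11 genes, of which 1 and 5 lay above the median gene. They ran from *Tox* at 0.737-fold to *Cic* at 1.22-fold for UK5099 and from *Hbp1* at 0.990-fold to *Lef1* at 1.31-fold for lactate. Among POU genes, the partner family of Sox proteins, 8 of 13 were measured, with medians of 1.1-fold and 1.2-fold. *Pou2f3*, the tuft cell factor, was highest in both: 12.8 in vehicle, 37.2 in UK5099 and 23.2 in lactate, or 2.91-fold and 1.81-fold. *Pou3f2*, a neural POU gene, was lowest in both, at 0.681-fold and 0.517-fold. The list of genes linked to *Sox9* and *Sox4* had 17 of 18 genes measured, *Sox5* and *Sox6* among them, with medians of 1.19-fold and 1.13-fold. In this list *Ctnnb1*, which encodes β-catenin, was highest in both at 1.46-fold and 1.48-fold, while *Col2a1* was lowest for UK5099 at 0.707-fold and *Wnt5a* for lactate at 0.583-fold. The 10 of 11 genes linked to *Sox2* had medians of 1.06-fold and 1.13-fold, and *Trp63*, the basal master gene p63, was highest for UK5099 at 1.39-fold and *Lin28a* lowest at 0.823-fold. For lactate *Klf5* was highest at 1.44-fold and *Nes* lowest at 0.934-fold. Of these 4 lists only the POU list had a gene at 1.5-fold or more against vehicle (*Pou2f3*), and 0 genes lay at 0.5-fold or less, counts to be read beside the shares of all genes given above (9.05% and 6.07%, and 1.36% and 0.513%).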

How the data were processed

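ATAC-seq was performed on 3 samples, 1 per condition, grouped by the treatment in the labels. According to the study's methods, cryopreserved cells were tagmented and reads were aligned with BWA, deduplicated, extended in silico and stacked in bins of 32 bp. Peaks were called with MACS without a control and cleared of exclusion-list regions. The submitters' processing notes name MACS3 and mm10, and the methods an earlier MACS. A shift of reads for the transposase offset is not described in the sources read. The values deposited by the authors are signal: the average peak height per gene over merged regions, scaled per library. They were used without further scaling. Merged regions also drew on peaks of a library not analysed here, whose entries were skipped. Called peaks were taken from the deposited flags and lists of peaks.

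Heights multiplied by the number of regions were whole multiples of 1 step per library (0.575, 1.00 and 0.471 for vehicle, UK5099 and lactate) in at least 99.99% of genes within 0.05, which gave the stacked reads, a median per gene of 233, 154 and 330. Stacked reads are the coverage of a single bin rather than fragment counts, so no p-values were computed from them. The counting intervals treat them as independent counts and may therefore be too narrow even for counting error. Ratios were taken without a pseudocount, and 1.5 and 0.5 were the thresholds. Peak positions came from the gene start and the deposited distances, and 99.9% of 42785 peaks listed more than once agreed within 1 bp. Positions were multiples of 32 bp in 93.1% of cases. Whether a position is a summit or a centre is not stated in the sources used. Heights of single regions were solved from genes that share regions. Annotation came from GENCODE M21, and 8 of 9 members shared a start or end with RefSeq GRCm38.p6, the same build. Promoters in RefSeq were matched by symbol for 7 of 9 members.

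All 9 members and the other Sox genes are named, with the highest and lowest gene of each list of HMG-box relatives, POU partners and linked genes. The members and lists were chosen with earlier results of these data known. Python 3.11.15, pandas 2.3.3, numpy 2.4.6 and SciPy 1.17.1 were used, and the computation was tested on simulated data. Alternatives were other scalings, pseudocounts, thresholds, a height filter and counts of called peaks.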

Additional observations from a re-analysis of the deposited data

How the results depend on the processing

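No paired analysis was possible because each condition has 1 library, and for the same reason no replicate could be left out. With libraries scaled to a common total height or by their median ratio, the members at 1.5-fold or more went from 1 to 0 for UK5099 against vehicle and for lactate against vehicle, and the lactate median went from 1.31-fold to 1.12-fold (1.119 and 1.118). The share of genes past either threshold that were more accessible went from 86.9% to 63.3% and 63.0% for UK5099, and from 92.2% to 63.4% and 63.2% for lactate. The members at 1.5-fold or more for UK5099 against vehicle were also 0 with a pseudocount of 1 or 10. With a pseudocount of 10 the members at 0.5-fold or less for lactate against vehicle, and those at 1.5-fold or more for UK5099 against lactate, went from 1 to 0. With a threshold of 2 the members past it were 0 in each comparison, and with 1/1.5 in place of 0.5 the members below it for UK5099 against lactate went from 0 to 2. No ratio of a member changed from past one threshold to past the other. Of the 27 ratios of single members, 19 stayed within their counting interval under either scaling and 27 under either pseudocount, and 10 of 25 ratios of called peaks lay within it. The fewest reads were those of *Sox7* and *Sox11* (37 and 50 in UK5099), which limits their ratios most.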
